A study of Mus musculus with 10 samples.

Results

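Colonic cluster 5 was a group of 233 goblet-like cells, 83 from normal colonic crypts and 150 from colonic crypts of mice given dextran sulfate sodium (DSS). Its members were the kept cells of these 2 libraries whose deposited annotation placed them in cluster 5, a cluster to which the annotation gives no cell type beyond the word "other". They were 233 of 3065 colonic cells and of 25204 cells in the series, which otherwise holds 8 libraries of intestinal organoids that were not used here. DSS is a chemical that, given in drinking water, injures the colonic epithelium and is followed by its repair. Each condition was represented by 1 library of crypt cells, with the treatments labelled normal and DSS. By the stated methods, mice for crypt isolation were 6 to 12 weeks old and those of the colitis model were females of 8 weeks that drank 2.5% DSS for 5 days, although whether the DSS library came from this model is not stated. The labels do not give the dose, the day of collection, the number of mice, their strain or sex, or the stretch of colon for either library. With 1 library per condition no test between conditions was possible, and all intervals below cover counting error only.

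Goblet cells are secretory cells of the intestinal epithelium that fill with mucin granules and release the mucus gel separating the epithelium from the bacteria of the lumen. They arise from crypt progenitors in which Notch signalling is low and the transcription factor Atoh1 is active, and Spdef acts after it in their maturation. Muc2 is the gel-forming mucin of the colon, and Agr2, a protein disulfide isomerase of the endoplasmic reticulum, is needed to make it. In the lower part of colonic crypts, secretory cells that carry Reg4 and Kit lie between the stem cells, and other goblet cells release antimicrobial proteins such as resistin-like beta (Retnlb) and angiogenin 4 (Ang4).

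The promoters of 4 genes that marked the cluster in both libraries (Spdef, Atoh1, Muc2 and Agr2) and of 3 secreted products that differed by over 10-fold between the libraries (Mptx1, Ang4 and Sval1) are shown so that the letters before each start site can be read beside the values. Each line gives the 250 bases before the RefSeq start site on the gene's own strand, 5′ to 3′, from build GRCm38.p6. Capitals mark CAGCTG (the E-box bound by Atoh1 and other basic helix-loop-helix factors), TGACGTG (a site of Xbp1 and related factors of the unfolded protein response) and TTTATG or its complement CATAAA (letters bound by the intestinal homeobox factors of the CDX family).
Spdef, chr17:27728952-27729201, minus strand: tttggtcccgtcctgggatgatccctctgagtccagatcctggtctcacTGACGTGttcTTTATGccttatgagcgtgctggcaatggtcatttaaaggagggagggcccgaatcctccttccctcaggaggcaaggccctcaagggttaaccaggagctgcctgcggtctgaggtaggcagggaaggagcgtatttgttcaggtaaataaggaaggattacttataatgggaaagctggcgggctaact
Atoh1, chr6:64728875-64729124, plus strand: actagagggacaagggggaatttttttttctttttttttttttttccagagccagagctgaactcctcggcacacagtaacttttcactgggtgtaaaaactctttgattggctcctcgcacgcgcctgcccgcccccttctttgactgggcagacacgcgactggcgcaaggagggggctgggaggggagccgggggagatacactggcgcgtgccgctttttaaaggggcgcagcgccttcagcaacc
Muc2, chr7:141690090-141690339, plus strand: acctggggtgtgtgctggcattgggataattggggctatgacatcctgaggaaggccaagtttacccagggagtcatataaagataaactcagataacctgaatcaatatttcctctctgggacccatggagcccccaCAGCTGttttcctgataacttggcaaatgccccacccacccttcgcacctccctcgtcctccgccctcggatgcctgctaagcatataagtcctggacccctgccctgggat
Agr2, chr12:35992675-35992924, plus strand: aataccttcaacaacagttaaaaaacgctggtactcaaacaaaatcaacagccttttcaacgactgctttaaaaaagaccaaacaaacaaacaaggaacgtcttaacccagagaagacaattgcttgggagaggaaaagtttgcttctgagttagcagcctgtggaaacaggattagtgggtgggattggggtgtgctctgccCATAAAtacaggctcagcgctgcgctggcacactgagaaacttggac
Mptx1, chr1:174330268-174330517, plus strand: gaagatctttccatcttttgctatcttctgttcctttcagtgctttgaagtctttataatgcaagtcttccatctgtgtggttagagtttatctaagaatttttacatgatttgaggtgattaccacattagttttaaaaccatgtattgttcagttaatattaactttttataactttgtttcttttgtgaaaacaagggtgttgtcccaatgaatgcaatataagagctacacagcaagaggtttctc
Ang4, chr14:51773591-51773840, minus strand: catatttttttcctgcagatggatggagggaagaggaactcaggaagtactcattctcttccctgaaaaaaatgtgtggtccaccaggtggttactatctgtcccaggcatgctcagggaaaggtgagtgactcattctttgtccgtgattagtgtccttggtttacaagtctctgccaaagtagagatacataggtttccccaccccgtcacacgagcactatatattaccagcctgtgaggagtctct
Sval1, chr6:41951378-41951627, plus strand: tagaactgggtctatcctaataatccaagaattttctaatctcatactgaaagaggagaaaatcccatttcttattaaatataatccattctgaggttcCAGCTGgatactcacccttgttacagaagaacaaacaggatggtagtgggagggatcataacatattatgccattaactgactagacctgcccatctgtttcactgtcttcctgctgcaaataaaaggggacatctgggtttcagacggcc
The Spdef window held TGACGTG at 201 and TTTATG at 191 bases before the start. Muc2 and Sval1 each held 1 CAGCTG, at 112 and 151 bases before the start, and Agr2 held 1 CATAAA at 47 bases. The windows of Atoh1, Mptx1 and Ang4 held none of the 3 motifs. Among 32851 RefSeq promoter windows of this length, searched on both strands, 4271 held CAGCTG, 542 (1.65%) held TGACGTG and 3536 (10.8%) held TTTATG. Of the 20 leading genes of the cluster named below, 18 matched the promoter table, and 6, 2 and 3 of them held the respective motif. Spink4 and Nov had no entry. These matches describe letters only.

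The kept cells held 19906845 UMIs (unique molecular identifiers, 1 per captured transcript molecule) in the normal and 32397122 in the DSS library. Cluster 5 contributed 1692235 and 3452264 of these, with a median of 21401 UMIs per cell in the normal library (range 1121 to 48325) and 23112 in the DSS library (range 1015 to 74200). Levels are given as CPM, the UMIs of a gene per 1000000 UMIs of the summed cells. The libraries shared 2 barcodes among the kept cells and 0 in cluster 5. Sex-linked genes separated the libraries: Xist was held by 77 of the 83 normal cells of the cluster and by 1 of the 150 DSS cells, whereas UMIs of 4 Y-linked genes (Ddx3y, Uty, Kdm5d and Eif2s3y) numbered 0 in the normal and 403 in the DSS cells. The other colonic cells showed the same split, with 0 and 3559 Y-linked UMIs. The DSS library thus held cells with Y-linked transcripts, although the methods name female mice for the colitis model, and DSS cannot be told apart here from sex or from any other difference between the 2 preparations.

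The cluster carried the goblet program in both libraries. The 15 goblet markers summed to 55218 CPM in the normal and 53816 CPM in the DSS cells of the cluster, against 5533 and 1689 CPM in all other colonic cells of the same libraries, and 14 of the 15 were above the other cells in both libraries. The exception was Zg16, which in the normal library stood at 299 CPM in the cluster and 581 CPM in the other cells. Because the cells had been clustered on these genes, this is a description and not a test.

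**Figure D1:**
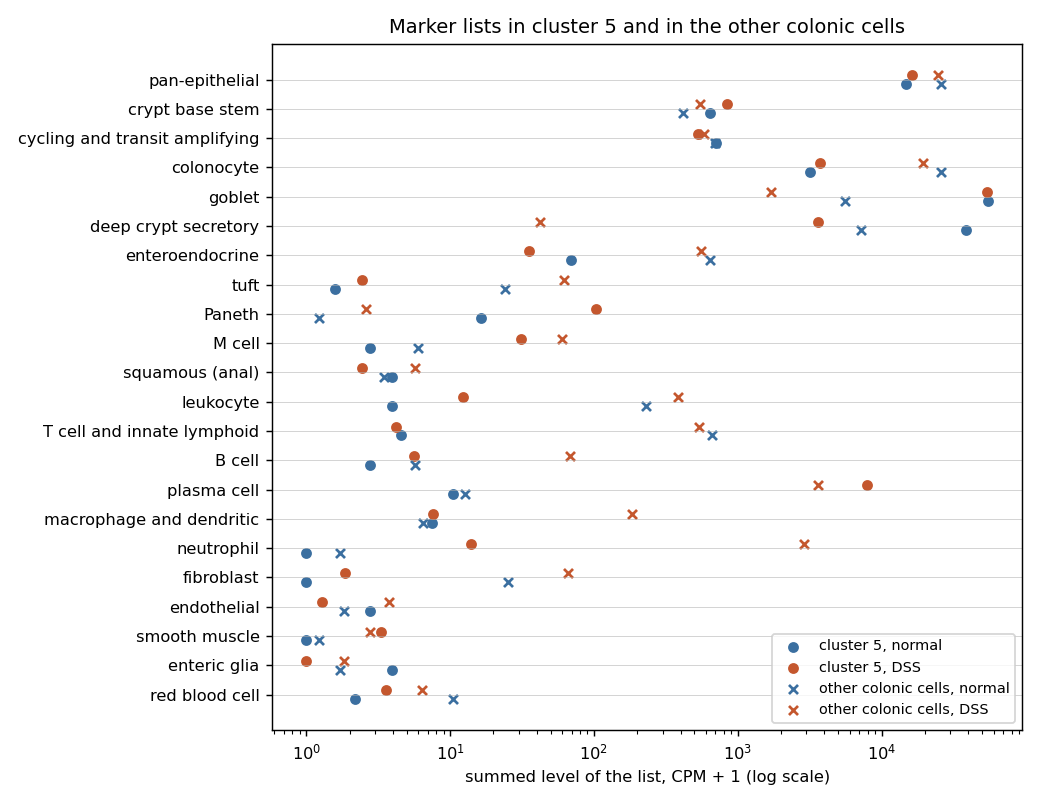
Summed level of each marker list in cluster 5 (circles) and in all other colonic cells (crosses) of the normal (blue) and the DSS (orange) library, on a log axis of CPM + 1. The goblet list lies at 55218 and 53816 CPM in the cluster, and the leukocyte list at 2.95 and 11.3 CPM. The deep crypt secretory list (Reg4, Kit, Retnlb, Mptx1 and Ang4) is at 38398 CPM in the normal and 3631 CPM in the DSS cells. Most of its normal sum comes from Mptx1 (25957 CPM), and its member Reg4 is not lower in the DSS cells (1066 and 1695 CPM).

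The 20 leading genes of the cluster included 4 regulators of transcription. First by the smaller of its excesses in the 2 libraries was Spdef (chr17:27714352-27728955 on GRCm38, as are all gene coordinates here), at 661 CPM in the normal and 372 CPM in the DSS cells, which was 47.0-fold and 64.0-fold above the other cells. Atoh1 (chr6:64729125-64731245) stood at 219 and 152 CPM, 36.5-fold and 52.4-fold above the others. Creb3l4, a membrane-bound transcription factor of the secretory pathway, was at 146 and 131 CPM. The transcriptional corepressor Cbfa2t3 was at 166 and 129 CPM. None of these 4 differed 2-fold between the libraries.

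Secreted products and their helpers gave most UMIs of the goblet list. Spink4, a small Kazal-type inhibitor secreted by goblet cells (chr4:40920052-40931395), was at 19361 CPM (95% Poisson interval 19152 to 19572) in the normal and 22605 CPM (22447 to 22765) in the DSS cells. Muc2 (chromosome 7) was at 12184 CPM (12019 to 12352) and 9791 CPM (9687 to 9896). Agr2 (chromosome 12) was at 13785 and 9900 CPM. Cells with a UMI of Muc2 made up 95.2% and 98.0% of the cluster, and every cell of the cluster held a UMI of Agr2, down to 1 UMI in the immunoglobulin-rich cell described below. Agr2 was also found in 4.17% and 27.6% of the leukocyte-rich cells of the 2 libraries after thinning. After each cell was thinned to 5000 UMIs, Muc2 was found in 93.8% of 65 normal and 98.5% of 135 DSS cells, against 29.2% and 36.8% of the leukocyte-rich clusters (24 and 87 cells of that depth), whose median depth before thinning was 3517 and 3532 UMIs.

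Further leading genes were Slc12a8, Rap1gap, Hpd, Nov, Gm1123, Meg3, Qsox1, Ramp1, Hepacam2, Kdelr3, Tpsg1 and the chemokines Ccl9 and Ccl6. Qsox1, a sulfhydryl oxidase, was at 337 and 301 CPM, and Kdelr3, a receptor that returns proteins to the endoplasmic reticulum, at 135 and 95.6 CPM. Ramp1, an accessory protein of the calcitonin receptor-like receptor, was at 388 and 676 CPM. Ccl6 was at 875 and 1369 CPM, and Ccl9 at 126 and 116 CPM. Meg3, a non-coding RNA, had a UMI in only 8 normal and 11 DSS cells, with 97.4% and 85.9% of its UMIs in 5 cells, and its thinned shares (9.23% and 5.93%) lay near those of the leukocyte-rich cells (8.33% and 3.45%). The 20 leading genes included 5 of the goblet list. Several were shared with cluster 19, another goblet-rich cluster described below. Gm1123 (454 CPM), Tpsg1 (299 CPM) and Muc2 (15576 CPM) were higher in cluster 19 than in cluster 5 of either library. Spdef (292 CPM), Atoh1 (111 CPM) and Ccl9 (8.85 CPM) were lower there. Enteroendocrine markers summed to 68.0 and 34.2 CPM, and of the 14 only secretin (Sct) reached 20 CPM in either library. Tuft markers summed to 0.591 and 1.45 CPM, with 7 of 11 at 0 in both libraries. The leukocyte list summed to 2.95 and 11.3 CPM, and 1 normal and 3 DSS cells held a UMI of Ptprc, the common leukocyte antigen. Neutrophil markers summed to 0 CPM in the normal and 13.03 CPM in the DSS cells of the cluster, against 0.714 and 2885 CPM in the other colonic cells.

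The cluster also held genes of the crypt base. The stem list (13 genes) summed to 644 CPM in the normal and 844 CPM in the DSS cells, against 418 and 544 CPM in the other colonic cells, and was led by Slc12a2, a sodium-potassium-chloride cotransporter, at 178 and 341 CPM, and Sox9, a crypt transcription factor, at 166 and 181 CPM. Mki67, a protein of dividing cells, was at 20.1 CPM in the normal and 17.7 CPM in the DSS cells. The 3 clusters of at least 50 cells whose profile was most like cluster 5 were clusters 2, 4 and 13, with Pearson's r of 0.931, 0.931 and 0.926 across 10719 genes, out of 17 clusters compared. These values are across genes of the same 2 libraries and have no replicate. Clusters 2, 4 and 13 held the goblet list at 1053, 2700 and 4316 CPM, against 54277 CPM in cluster 5, and the stem list at 1122, 804 and 759 CPM, against 778 CPM.

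Cluster 5 was 7.33% of the kept cells of the normal library (83 of 1132, exact binomial 95% interval 5.88% to 9.01%) and 7.76% of those of the DSS library (150 of 1933, 6.61% to 9.04%). The intervals overlapped. Goblet markers were also high in 2 smaller clusters. Cluster 19 held the goblet list at 127319 CPM and came from 36 normal and 2 DSS cells, and cluster 20 held it at 24343 CPM and came from 0 normal and 30 DSS cells. Cluster 20 was shallow, with a median of 4006 UMIs. It held the colonocyte list at 14249 CPM, against 3564 CPM in cluster 5, and Spdef and Atoh1 at only 21.5 and 28.7 CPM. With clusters 19 and 20 added, the share was 10.5% (8.79% to 12.4%) in the normal and 9.42% (8.15% to 10.8%) in the DSS library. Cells rich in goblet markers were therefore divided between clusters in different ways, and values within cluster 5 compare the part of each library's goblet cells that fell into it.

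Of 5870 genes of at least 20 CPM in 1 of the libraries, 141 (2.40%) were at least 2-fold higher and 91 (1.55%) at least 2-fold lower in the DSS cells of the cluster, on the scale of log2(CPM + 1). These counts depended on the setting: they were 262 and 192 with each cell weighted equally and 446 and 349 after thinning to 5000 UMIs. The median difference over the 5870 genes was −0.02. The Poisson intervals of the libraries did not overlap for any gene of either set. At this depth the limits of level and fold made that nearly certain in advance, so it adds no support. The intervals also did not overlap for genes within 2-fold such as Muc2, Spink4 and Agr2. The secreted products Mptx1, Ang4 and Retnlb were lower in the DSS cells. The protease inhibitor Slpi was higher, and Muc2, Agr2 and Spink4 stayed within 2-fold. Zg16 and Spink1 were higher in cluster 5 taken by itself. With clusters 19 and 20 added, Zg16 was within 2-fold and Spink1 was lower. Both were also higher in the DSS library in the remaining epithelial clusters: Zg16 at 32.0 and 114 CPM, Spink1 at 47.0 and 143 CPM.

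**Figure D2:**
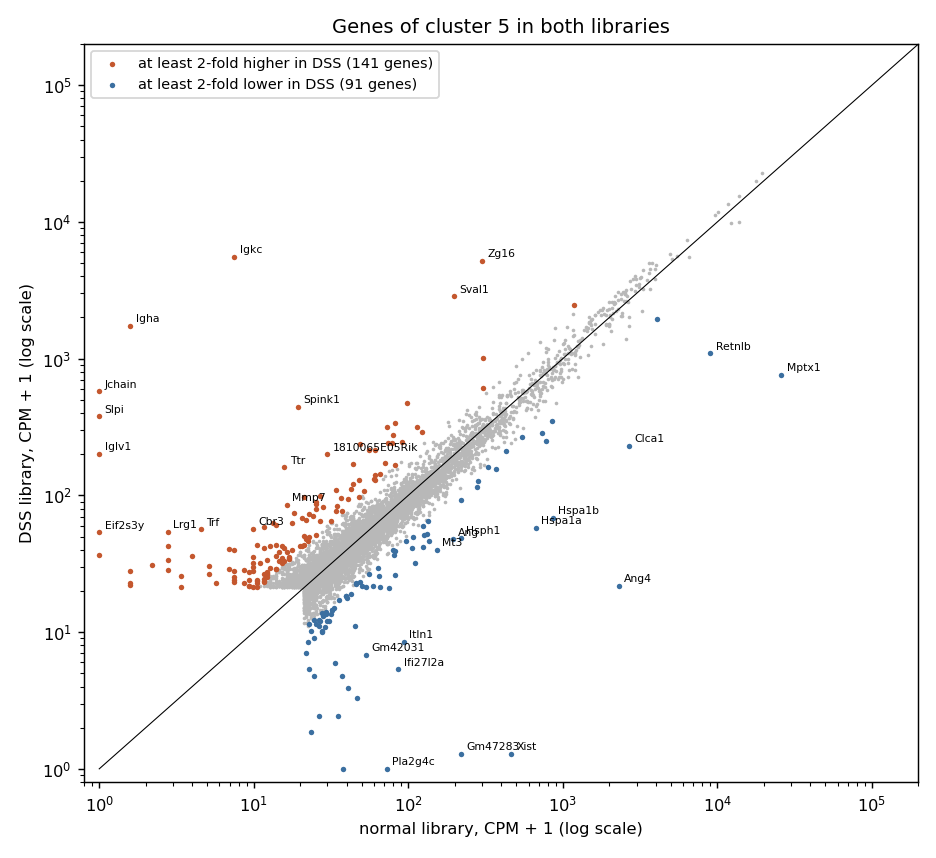
Level of each of the 5870 genes considered in the normal (horizontal) and DSS (vertical) cells of cluster 5, as CPM + 1 on log axes, with the line of equal level. Named points are the 15 genes with the highest and the 15 with the lowest ratio, and most of the 5870 genes lie close to the line.

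Among the 15 lowest genes were Mptx1, Ang4, Retnlb, Clca1 and Itln1, all of them secreted. Mptx1, a mucosal pentraxin (chr1:174330518-174332873), was at 25957 CPM (25715 to 26201) in the normal and 764 CPM (736 to 794) in the DSS cells, 34.0-fold lower (counting interval 32.6 to 35.3). Ang4, a ribonuclease with antibacterial activity (chr14:51763878-51773590), was at 2298 and 20.9 CPM, 110-fold lower (87.3 to 141). Retnlb (chr16:48816856-48818892) was at 8993 and 1092 CPM, 8.24-fold lower (7.95 to 8.54). All 3 were thus higher in the normal cells by more than their counting error.

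Clca1, a metalloprotease secreted with mucus (chr3:145003817-145032776), was at 2660 and 230 CPM, 11.6-fold lower (10.7 to 12.5). Itln1, an intelectin that binds bacterial sugars, was at 92.2 and 7.53 CPM, 12.2-fold lower (8.05 to 19.3). Pla2g4c, a cytosolic phospholipase A2, had 121 UMIs in the normal (71.5 CPM) and 0 in the DSS cells, at least 82.3-fold lower against a floor of 3 counts (65.9-fold by the bound of the counting interval). Ang and Rnase4, ribonuclease genes that overlap on chromosome 14 and whose reads may be split between them, were at 193 and 776 CPM in the normal and 46.6 and 247 CPM in the DSS cells. Mt3, a metallothionein, was at 151 and 39.1 CPM. Gm42031, a predicted gene, Xist, and Gm47283, a predicted gene that is annotated on chromosome Y but had 367 UMIs in the normal and 1 in the DSS cells, completed the lower group together with the interferon-responsive gene Ifi27l2a and the heat shock genes described below.

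Mptx1, Ang4, Retnlb and Clca1 were also lower outside the goblet-rich clusters of the DSS library. The other epithelial clusters, so called here only because at most 50% of their cells held a Ptprc UMI and leaving out clusters 5, 19 and 20 (794 normal and 1306 DSS cells), held Mptx1 at 162 and 6.17 CPM, Ang4 at 17.3 and 1.24 CPM, Retnlb at 20.0 and 7.07 CPM, and Clca1 at 45.4 and 5.58 CPM. Rnase4 (60.9 and 64.5 CPM) and Mt3 (1.02 and 0.973 CPM) differed little there. RNA released from other cells can give such low levels, and its part was not tested. For these 4 genes the level in cluster 5 was above that of these cells within the same library. The mix of the other epithelial clusters differed between the libraries. Cluster 3 held 274 normal cells and 1 DSS cell and cluster 12 held 93 and 1, whereas cluster 4 held 11 and 230 and cluster 9 held 2 and 108. Values of the other epithelial clusters throughout thus compare unlike mixes of cells, and the part of this mix was not tested.

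Among the higher genes were a lectin, a secreted protein and protease inhibitors. Zg16, a lectin that binds gram-positive bacteria and is packed into goblet granules, was at 299 CPM (274 to 326) in the normal and 5197 CPM (5121 to 5273) in the DSS cells, 17.4-fold higher (lower bound of the counting interval 15.9). Sval1, a gene of the seminal vesicle antigen-like family (chr6:41951630-41956098), was at 197 and 2862 CPM, 14.5-fold higher (13.04 to 16.27). Spink1, a secreted trypsin inhibitor, was at 18.3 and 441 CPM, 24.1-fold higher (16.9 to 35.6).

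These 3 differences did not hold over all goblet-rich clusters of the libraries. Cluster 19, nearly all of it normal, held Zg16 at 15168 CPM, Sval1 at 6047 CPM and Spink1 at 5378 CPM in its 36 normal cells. With clusters 19 and 20 added to cluster 5, Zg16 was at 4469 CPM in the normal and 5783 CPM in the DSS library, and Sval1 at 1837 and 2807 CPM, neither of them 2-fold apart, and Spink1 was at 1521 and 753 CPM, a difference in the opposite direction. Mptx1, Ang4, Clca1 and Retnlb stayed lower in the DSS library in this larger set, at 60469 and 738 CPM, 6774 and 22.4 CPM, 12308 and 334 CPM, and 11653 and 1011 CPM.

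**Figure D3:**
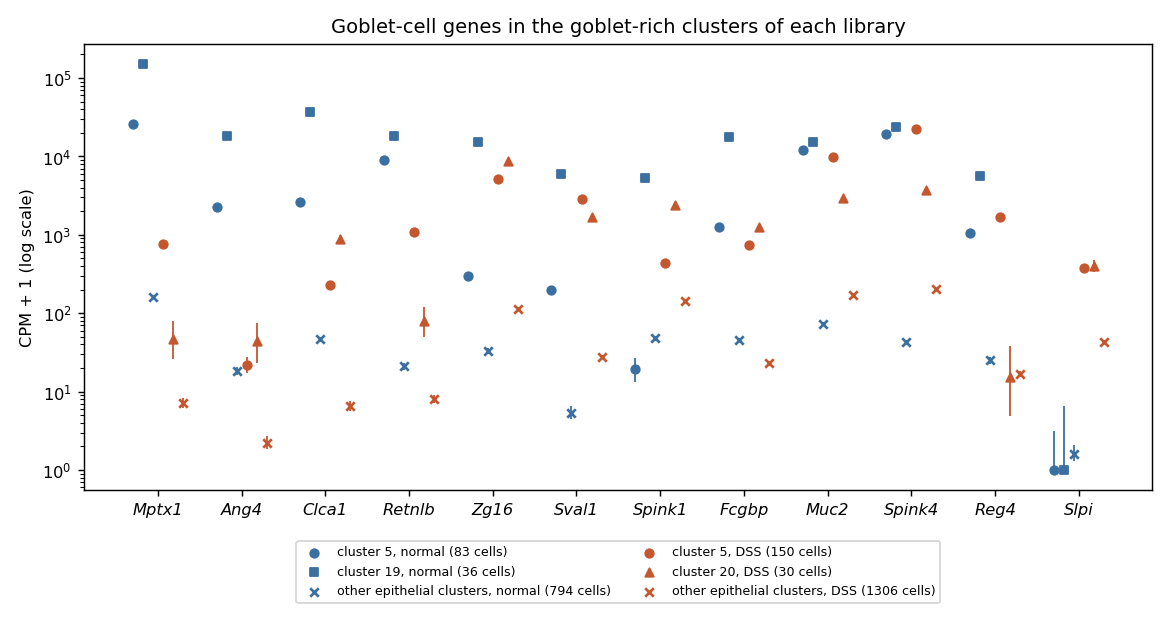
Level of 12 genes, among them Slpi, which is not a goblet marker here, in clusters 5, 19 and 20 and in the remaining epithelial clusters of each library. Values are CPM + 1 on a log axis with 95% Poisson intervals. For Mptx1, Ang4, Clca1 and Retnlb both normal goblet-rich clusters lie above both DSS ones, whereas for Zg16, Sval1 and Spink1 the highest values are in cluster 19 of the normal library.

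Other genes of the higher group were also higher in the rest of the epithelium. Slpi, a secreted leukocyte protease inhibitor (chr2:164354070-164389095), had 0 UMIs in the normal and 1305 in the DSS cells (378 CPM), at least 213-fold higher against a floor of 3 counts (173-fold by the bound of the counting interval, and 186-fold against the floor without the immunoglobulin-rich cell described below), and stood at 0.597 and 41.8 CPM in the other epithelial clusters. Slpi was found in 0 of 65 normal and 30.4% of 135 DSS cells thinned to 5000 UMIs. It was also found in 8.33% of the 24 normal and 25.3% of the 87 DSS leukocyte-rich cells, a lineage that can itself express the gene. The leukocyte-rich clusters held Slpi at 337 and 735 CPM, above cluster 5 in both libraries. Lrg1, a secreted glycoprotein of the acute phase, was at 1.77 CPM (3 UMIs) and 53.3 CPM, 30.1-fold higher (10.1 to 147). The leukocyte-rich clusters held Lrg1 at 0 and 277 CPM. Ttr, the thyroxine carrier transthyretin, was at 14.8 and 160 CPM, and Trf, the iron carrier transferrin, at 3.55 and 55.6 CPM. Mmp7, matrilysin, a metalloprotease of Paneth cells that activates defensins, was at 15.4 and 84.6 CPM in the cluster and at 0.119 and 1.46 CPM in the other epithelial clusters. Cbr3, a carbonyl reductase, and 1810065E05Rik were at 8.86 and 56.2 CPM, and 29.0 and 198 CPM. The group also held the Y-linked Eif2s3y. The other epithelial clusters held 1810065E05Rik at 1427 and 3596 CPM, far above cluster 5 in both libraries, and the part of released RNA in this value was not tested.

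The 3 immunoglobulin genes and Jchain, the chain that joins IgA units, owed their place in the higher group to 1 cell. Igkc was at 6.50 CPM in the normal and 5575 CPM in the DSS cells, and Igha, Jchain and Iglv1 at 1733, 576 and 200 CPM in the DSS cells. One DSS cell of 38306 UMIs held 73.0% of its UMIs in immunoglobulin genes and Jchain, including 19200 of the 19246 Igkc UMIs of the DSS cells, with 4 UMIs of the goblet list and 10 of Epcam. The next highest cell stood at 0.109%. Without it, Igkc was at 13.5 CPM, Igha at 6.74 CPM, Jchain at 2.93 CPM and Iglv1 at 0.293 CPM in the DSS cells. The annotation thus placed 1 plasma-cell-like profile in the cluster, and of the other named genes Slpi moved most on the log2 scale without that cell, from 378 to 330 CPM.

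**Figure D4:**
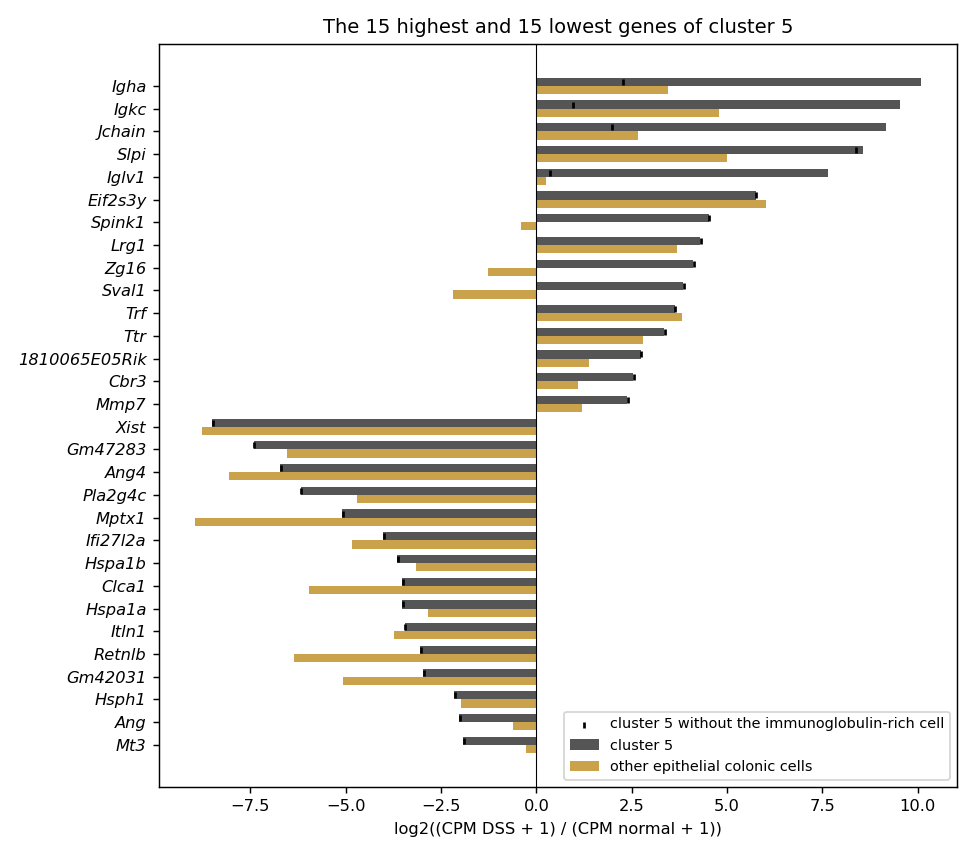
Difference between the DSS and the normal library on the log2(CPM + 1) scale for the 30 named genes, in cluster 5 (dark bars), in all other epithelial clusters including 19 and 20 (light bars), and in cluster 5 without the immunoglobulin-rich cell (ticks). The ticks lie well short of the bar ends for Igha, Igkc, Jchain and Iglv1 and slightly short for Slpi, and Spink1, Zg16 and Sval1 point opposite ways in the 2 sets of cells.

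Mucus assembly was described by 2 lists. Of 17 considered genes for mucins and mucus packaging, 3 were past the fold upward (Zg16, Muc3 and Gal3st2) and 1 downward (Clca1), against 2.40% and 1.55% of all genes, with a median of 0.05 against −0.02 over all genes (−0.04 to 0.30 over the alternative settings). Muc3, a membrane-bound mucin of colonocytes, was at 60.3 and 213 CPM in the cluster but at 1648 and 959 CPM in the other epithelial clusters. Of 24 considered genes of the secretory pathway and unfolded protein response, 0 were past the fold, and the median was −0.43. Hspa5, the main chaperone of the endoplasmic reticulum, was at 2544 and 1396 CPM, the calcium-binding chaperone Calr at 1198 and 913 CPM, and the disulfide isomerase Pdia3 at 1138 and 834 CPM. All 25 genes of this list were above the other colonic cells in both libraries. They summed to 15173 and 11313 CPM in the cluster, against 5793 and 5279 CPM in the other colonic cells. The same held for 27 of 28 ribosomal protein genes but for only 1 of 27 nuclear genes of the respiratory chain. No such share over all genes is given here.

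Within the 15 goblet markers, 1 was past the fold upward (Zg16) and 1 downward (Clca1), against 2.40% and 1.55% of all genes, and the median was −0.32. Tff3, a trefoil peptide that stabilises mucus, was at 885 and 1686 CPM (1967 and 1899 CPM with clusters 19 and 20 added), and Fcgbp, a large mucus-bound protein, at 1258 and 734 CPM (5810 and 923 CPM with these clusters, past the fold). Of the 5 deep crypt secretory markers, 3 were past the fold downward, against 1.55% of all genes, with a median of −3.04. The remaining pair were Reg4, at 1066 and 1695 CPM, and the receptor tyrosine kinase Kit, at 83.3 and 58.2 CPM. The lower genes of this list were thus Mptx1, Ang4 and Retnlb. Reg4 stood 1.59-fold higher in the DSS cells (1.51 to 1.68), and lower once clusters 19 and 20 were added (2337 and 1562 CPM). In the normal library 5 cells held 74.3% of its UMIs and the median cell held 0, so the normal level rested on few cells.

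The antimicrobial and acute phase list contained members of both directions, 6 higher and 3 lower among 11 considered (against 2.40% and 1.55% of all genes), with a median of 1.13. The lower ones were Retnlb, Ang4 and Itln1. Reg3b and Reg3g, related C-type lectins of the intestine whose reads may in part be shared, were at 304 and 1012 CPM, and 97.5 and 474 CPM. Their levels were higher in the other epithelial clusters, where Reg3b was at 1288 and 7997 CPM. Duox2 and its maturation factor Duoxa2, which make hydrogen peroxide at the cell surface, were at 59.1 and 131 CPM, and 24.2 and 87.8 CPM. Saa1, a serum amyloid, was at 21.9 and 72.1 CPM and at 895 and 1183 CPM in the other epithelial clusters. Pigr, which carries IgA into the lumen, differed little, at 2082 and 1938 CPM.

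Heat shock genes and some interferon-responsive genes were lower in the DSS cells. In the list of immediate early genes, which also respond to dissociation, 5 of 17 were past the fold downward and 0 upward (of all genes, 1.55% were lower and 2.40% higher), with a median of −0.17. Of these, 4 encode heat shock proteins. The near-identical genes Hspa1a and Hspa1b, whose reads cannot be fully separated, were at 665 and 861 CPM in the normal and 57.1 and 67.8 CPM in the DSS cells, Hsph1 at 218 and 48.1 CPM, and Dnajb1 at 427 and 210 CPM. The other epithelial clusters held Hspa1b at 705 and 78.4 CPM. Fos and Jun, by contrast, were at 2259 and 2307 CPM, and 1991 and 1754 CPM. Of 13 considered interferon-responsive genes, 6 were past the fold downward and 0 upward, against the same shares of all genes, with a median of −0.46. Bst2 was at 131 and 51.0 CPM, Irf7, the transcription factor that drives the interferon response, at 73.9 and 20.0 CPM, and Oas1a at 64.4 and 20.3 CPM. The same 3 genes were lower in the other epithelial clusters, with Irf7 at 314 and 69.9 CPM.

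Antigen presentation was described by 2 lists. Among 10 considered genes of MHC class I, 0 were past the fold, where 2.40% of all genes were higher and 1.55% lower, and the median of −0.10 lay between −0.35 and 0.18 over the alternative settings, and was positive in 5 of them, among them a minimum of 1 UMI (0.14) and TMM scaling (0.12), which changed how many genes were considered. H2-K1 was at 940 and 736 CPM and B2m at 388 and 293 CPM. Of the MHC class II list 1 gene was considered, Cd74, the invariant chain, at 26.0 and 97.6 CPM, against 24.7 and 168 CPM in the other epithelial clusters.

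Genes of repair and of the mature surface were compared next. In the list of revival and fetal-like epithelium, 4 of 12 considered genes were past the fold upward and 0 downward (of all genes, 2.40% were higher and 1.55% lower), with a median of 0.50. Ly6a (Sca1) was at 79.2 and 276 CPM, Anxa1 at 42.5 and 120 CPM, and Sprr1a at 50.8 and 107 CPM. In the normal library the level of Ly6a was far higher in the other epithelial clusters (1369 CPM) than in the cluster. In the colonocyte list, 3 of 9 considered genes were higher (Car1, Aqp4 and Krt20) and 1 was lower (Fabp2), against the same shares of all genes, and the median of 0.81 was −0.07 when each cell counted equally and −0.55 among genes of at least 100 CPM. The carbonic anhydrase Car1 was at 113 and 314 CPM in the cluster and at 7172 and 5907 CPM in the other epithelial clusters. Best2, an anion channel that is expressed by colonic goblet cells, was at 20.1 and 96.2 CPM, 4.79-fold higher (3.36 to 7.03), at 43.4 and 91.2 CPM with clusters 19 and 20 added, and at only 0.0597 and 1.05 CPM in the other epithelial clusters.

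Transcription factors of gut position included 2 members past the fold among 14, both upward, against 2.40% of all genes. Hoxb13, a homeobox factor of the hindgut, was at 43.1 CPM (33.8 to 54.2) and 170 CPM (157 to 184), 3.94-fold higher (3.09 to 5.10). The other epithelial clusters held it at 129 and 145 CPM. Cells with a Hoxb13 UMI after thinning were 9.23% of 65 normal and 45.9% of 135 DSS cells, and 4.17% and 3.45% of the leukocyte-rich cells. The caudal homeobox gene Cdx1 was at 256 and 263 CPM. Of 5 considered genes of Notch signalling 0 were past the fold, a count near the background share of all genes, and Hes6 was at 186 and 235 CPM and Hes1 at 99.9 and 116 CPM.

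Detoxification genes were higher in 4 of 19 considered and lower in 0, against 2.40% and 1.55% of all genes, with a median of 0.34. Gpx2, a glutathione peroxidase of the intestinal epithelium, was at 1177 and 2466 CPM, and Adh1, an alcohol dehydrogenase, at 47.9 and 238 CPM. The other epithelial clusters held Gpx2 at 589 and 1318 CPM. Tight junction genes had 1 of 10 considered members past the fold, against 2.40% of all genes upward: Cldn4, at 77.4 and 242 CPM.

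Cells of the cluster differed widely in some secreted products. Goblet markers took a median of 5.36% of the UMIs of a normal cell (0.686% to 10.2%) and 5.85% of a DSS cell (0.0104% to 20.6%, the lowest being the immunoglobulin-rich cell). For Mptx1 the median normal cell was at 162 CPM and the highest at 214903 CPM, and 5 normal cells held 53.3% of its UMIs. Zg16 in the normal library was more concentrated still, with 91.5% of its UMIs in 5 cells and a median of 0. In the DSS library the median cell held Zg16 at 108 CPM and the highest cell at 102787 CPM. Muc2 and Spink4 were spread more evenly, with 18.4% and 22.4% of their normal UMIs in 5 cells.

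**Figure D5:**
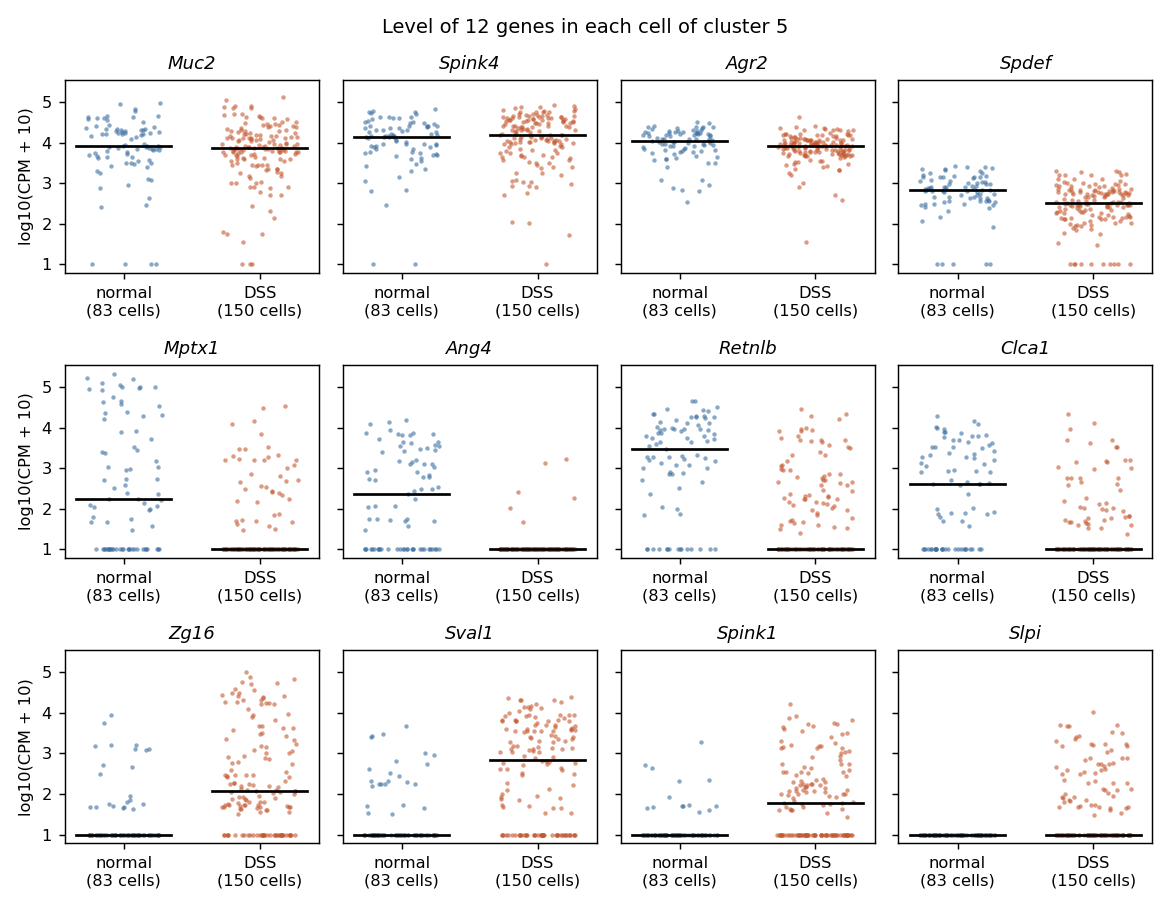
Level of 12 genes in each cell of cluster 5 by library, as log10(CPM + 10), with a bar at the median of 83 normal or 150 DSS cells. Muc2, Spink4 and Agr2 are found in nearly all cells of both libraries, Mptx1, Ang4, Retnlb and Clca1 in more of the normal cells, and Zg16, Sval1, Spink1 and Slpi in more of the DSS cells.

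Shares of cells moved with the levels for most of these genes. After thinning to 5000 UMIs, Ang4 was found in 55.4% of 65 normal cells (42.5% to 67.7%) and 3.70% of 135 DSS cells (1.21% to 8.43%), against 4.17% and 1.15% of the leukocyte-rich cells. Retnlb was found in 81.5% (70.0% to 90.1%) and 37.0% (28.9% to 45.8%), against 12.5% and 3.45% of the leukocyte-rich cells. Sval1 was found in 21.5% (12.3% to 33.5%) and 62.2% (53.5% to 70.4%), against 12.5% and 12.6%. Zg16 was found in 15.4% (7.63% to 26.5%) and 53.3% (44.6% to 62.0%), but also in 12.5% and 46.0% of the leukocyte-rich cells. The Zg16 share thus lay close to that of the leukocyte-rich cells in both libraries. Its level did not, at 42.1 and 237 CPM in the leukocyte-rich clusters against 299 and 5197 CPM in cluster 5. The part of released RNA in these shares was not tested.

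Markers of other lists were counted in the same cells. All 65 normal and all 135 DSS cells of the thinned set held at least 2 goblet markers, and 48 and 102 of them held at least 2 stem markers as well, against 1 of 24 and 8 of 87 leukocyte-rich cells. The same count for goblet markers in the leukocyte-rich cells was 5 of 24 and 58 of 87, so holding 2 goblet markers did not set the cluster apart by itself. At least 2 colonocyte markers were held by 65 of 65 and 132 of 135 cells, against 11 of 24 and 71 of 87 leukocyte-rich cells. The colonocyte list nevertheless summed to 3182 and 3751 CPM in the cluster, against 26058 and 19325 CPM in the other colonic cells. Of its 16 members, 0 were above the other cells in both libraries. At least 2 cycling markers were held by 39 of 65 and 64 of 135 cells, below the 17 of 24 and 58 of 87 leukocyte-rich cells. At least 2 enteroendocrine or tuft markers beside the goblet markers were held by 0 cells of the thinned set. Cells with at least 2 markers of the leukocyte list numbered 0 and 1.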

How the data were processed

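The authors deposited raw UMI counts per gene and cell for all libraries, and a table that gives each kept cell a cluster. Per the labels and methods, reads were processed with Cell Ranger 3.0.0 against mm10 (the matrix headers name 3.1.0) and cells clustered with Seurat 3.1.4. The methods state a lower bound of 1500 genes per cell, but 14 normal and 14 DSS cells of cluster 5 lay under it. Counts of the 2 colonic libraries were summed over the cells of cluster 5 and given as CPM with exact Poisson 95% intervals, and shares with exact binomial (Clopper-Pearson) intervals. The other 8 libraries of the count table are organoids, not used here.

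A gene was considered at 20 CPM or more in 1 library and was past the fold at an absolute difference of 1 on the log2(CPM + 1) scale. Genes with 0 UMIs were given a bound from a floor of 3 counts. Named genes were the 20 with the largest excess over the other colonic cells in the library where that excess was smaller (50 CPM or more in both), the 15 highest and 15 lowest differences (50 CPM or more in the higher library, intervals not overlapping), and genes of the lists. The lists and the cluster were chosen with earlier results of these data known, and 7 list symbols were not in the table. Gene coordinates are from GENCODE on GRCm38, promoters from RefSeq on GRCm38.p6. Leukocyte-rich clusters were those in which over 50% of cells held a Ptprc UMI, and all others were counted as epithelial by this rule alone, without a check of each by markers. Doublets were not called, and leaving out the 5% of cells with the most UMIs stood in for it. Cells were thinned to 5000 UMIs where shares of positive cells were compared. Alternatives changed the pseudocount to 5 CPM, the minimum to 100 CPM or 1 UMI, the scaling (TMM, edgeR 4.0.16; a total without mitochondrial and ribosomal protein genes), the weight of cells and the cells kept. Leaving out the immunoglobulin-rich cell and adding clusters 19 and 20 were chosen after seeing the data. Scripts ran in Python 3.11.15 with scipy 1.17.1 and were tested on simulated data.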

Additional observations from a re-analysis of the deposited data

Results flagged for a closer look

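Among genes of at least 50 CPM in both sets of cells, 3 differed at least 2-fold between the libraries in opposite directions in cluster 5 and in the other epithelial cells, and this contrast of signs was not tested, since each condition had 1 library. The other epithelial cells of the libraries were also unlike mixes of clusters, such as cluster 3 (274 normal cells and 1 DSS cell) and cluster 4 (11 and 230). The log2 difference of Zg16 was 4.11 in cluster 5 and −1.27 in the other epithelial cells, clusters 19 and 20 included, where its level was 605 CPM in the normal and 251 CPM in the DSS library. For Sval1 the values were 3.86 and −2.19. Outside the goblet-rich clusters both genes were higher in the DSS library, Zg16 at 32.0 and 114 CPM and Sval1 at 4.36 and 26.7 CPM. For Ly6a the log2 difference was 1.79 in cluster 5 and −1.04 in the other epithelial cells, where its level was 1322 CPM in the normal and 642 CPM in the DSS library. Genes under these limits also had opposite signs, among them Spink1 (4.52 and −0.39) and Reg4 (0.67 and −3.81). Outside the goblet-rich clusters Spink1 was higher in the DSS library, at 47.0 and 143 CPM, and Reg4 was lower, at 24.1 and 15.8 CPM.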

How the results depend on the processing

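Against 141 higher and 91 lower genes, a minimum of 100 CPM gave 37 and 31, a minimum of 1 UMI 892 and 480, the mean of per-cell CPM 262 and 192, and cells thinned to 5000 UMIs 446 and 349. A total without mitochondrial and ribosomal protein genes gave 229 higher and 97 lower genes. The first 2 settings change how many genes are considered, and for the others the cause was not tested. The share of 7.33% in the normal library became 9.09% without the leukocyte-rich clusters and 10.5% with clusters 19 and 20 added, and the share of 7.76% in the DSS library became 10.1%, 9.42% and, among cells of at least 1500 genes, 9.71%. With clusters 19 and 20 added, the log2 difference of Spink1 turned to −1.01, and those of Zg16 (0.37) and Sval1 (0.61) no longer passed the fold. Igha, Igkc, Jchain and Iglv1 fell under the minimum level without the immunoglobulin-rich cell. Among the 30 named genes with the highest or lowest differences, all others kept their direction and stayed past the fold wherever they were considered. Genes outside these 30 are not covered: Reg4 and Tff3 turned from higher to lower in the DSS library with clusters 19 and 20 added. No paired analysis was possible because each condition had 1 library and no test was made. With 83 and 150 cells and a floor of 1.77 and 0.869 CPM, genes of a few CPM cannot be compared.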

Other observations

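Several lists held no gene past the fold, where 2.40% of all genes were higher and 1.55% lower, so a count of 0 in lists of this size is near the background. For 28 ribosomal protein genes this went with a median log2 difference of 0.32, against −0.02 over all genes. They summed to 62371 CPM in the normal and 77945 CPM in the DSS cells. Their median was 0.52 in the other epithelial cells, clusters 19 and 20 included. Mitochondrially encoded genes summed to 75120 and 84348 CPM, and nuclear genes of the respiratory chain to 16848 and 16625 CPM, with 0 of 27 past the fold. Of 19 genes of cholesterol synthesis and 14 considered genes of glycolysis, 0 were past the fold. Of 9 considered genes of S phase, 2 were past the fold downward (against 1.55% of all genes), the replicative helicase subunit Mcm5 and the uracil glycosylase Ung. The S phase median was −0.78 in cluster 5 and also −0.78 in the other epithelial cells. In cluster 5 the S phase list summed to 586 and 352 CPM, whereas the mitosis list summed to 180 and 203 CPM.

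Markers of Paneth cells, which the colon normally lacks, summed to 15.4 CPM in the normal and 102 CPM in the DSS cells of the cluster, most of it from Mmp7, with 3 of 5 markers at 0 in both libraries, against 0.22 and 1.59 CPM in the other colonic cells. Epithelial chemokines included 4 of 6 considered genes past the fold upward (Cxcl2, Cxcl10, Ccl20 and Ccl28) and 0 downward, against 2.40% and 1.55% of all genes, and the whole list summed to 117 and 260 CPM in the cluster, against 197 and 628 CPM in the other colonic cells.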
